A study of Arabidopsis thaliana with 18 samples.

Results

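The plastid genome of Arabidopsis thaliana codes for core subunits of the photosynthetic complexes, for ribosomal proteins and RNA polymerase subunits of the plastid, and for a few other proteins. In the platform's gene table, 69 of the 22746 probe sets tested were assigned to a single plastid gene, with a lower-case symbol that starts with psa, psb, pet, ndh, atp, rpo, rpl, rps, rbcL, ycf, accD, clpP, matK, cemA or ccsA. Each probe set combines the signals of several short probes for a transcript. The 69 members stood for 69 different genes: 5 of photosystem I, 15 of photosystem II, 6 of the cytochrome b6f complex, 10 of the NDH complex, 6 of the ATP synthase, 4 of the plastid-encoded RNA polymerase, 7 of the large and 8 of the small ribosomal subunit, and 8 others. A place on the plastid genome in RefSeq, which holds 78 different protein-coding plastid symbols, was a condition for membership. A further 8 probe sets, with 7 symbols, list both copies of a gene of the inverted repeat, and they were not counted as members.

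Seeds of the accessions C24 and Col-0, both grown with 16 h of light, were taken 8-9, 10-11 and 12-13 d (days) after flower opening. The groups were therefore C24 at 8-9, 10-11 and 12-13 d and Col-0 at 8-9, 10-11 and 12-13 d, with 3 arrays in each of the 6 groups and 18 arrays in all; both accessions are wild types, and the labels name no mutation, transgene or treatment. Each array held RNA from 1 pool of seeds dissected from 48 siliques (seed pods), 8 from each of 6 plants. Whole seeds hold embryo, endosperm and seed coat together, so fewer plastid-rich cells and less plastid RNA per cell cannot be told apart. The titles call the arrays of a group biological replicates, but nothing in the labels says that their pools came from separate plants. The tests therefore rest on how far pools differ, and the number of arrays limits the precision.

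Plastid genes are read by a bacterial-type polymerase with plastid-encoded core subunits and by phage-type polymerases encoded in the nucleus. Many plastid genes lie in clusters that are transcribed together and then cut and processed into smaller RNAs. The embryo of Arabidopsis is green during mid-development and its plastids photosynthesise, and the plastids lose much of this apparatus as the seed matures. Plastid RNAs mostly lack stable poly(A) tails, so their signal can depend on the primer used for labelling, and no source used here names it.

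Values are log2 signals made with RMA, and SE is the standard error of a log2 difference. A member was called, and is said to have risen or fallen, when its adjusted p in a limma fit over all 22746 probe sets was under 0.05. Accession differences are C24 minus Col-0, and stage differences are later minus earlier. An accession difference in transcript level cannot be told apart from a difference in the sequence under the probes. Levels of different probe sets are not compared.

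The members varied between the arrays of a group more than other probe sets did. Their median within-group SD was 0.248, 0.336 and 0.135 in C24 at 8-9, 10-11 and 12-13 d, against 0.106, 0.114 and 0.0999 over all probe sets. In Col-0 it was 0.184, 0.152 and 0.460 at 8-9, 10-11 and 12-13 d, against 0.106, 0.0924 and 0.132 over all probe sets. On 2 arrays the median deviation of the members from their group means was under -0.2, a threshold chosen after the data were seen, and these are called the 2 low arrays below. On replicate 1 of C24 at 8-9 d, 58 of 69 members lay below their group mean, with a median deviation of -0.22. On replicate 1 of Col-0 at 12-13 d, 53 of 69 lay below it, with a median deviation of -0.39, while psbE, psbF, psbL and psbJ gave their highest Col-0 signal of that stage there. The members' own values chose these 2 arrays. Leaving them out therefore raises most member means in their groups by construction, and counts without them are not a separate check. Other arrays were uneven too: 10 of 69 members lay below the group mean on replicate 2 of C24 at 8-9 d, and in Col-0 11 did on replicate 1 of 8-9 d, 52 on replicate 2 and 12 on replicate 3 of 10-11 d. The source name field of the labels gives the other accession for all 18 samples, and titles and characteristics were followed here. If the source names were right, every accession difference would have the opposite sign, and the stage changes given for C24 and Col-0 would be exchanged.

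**Figure D1:**
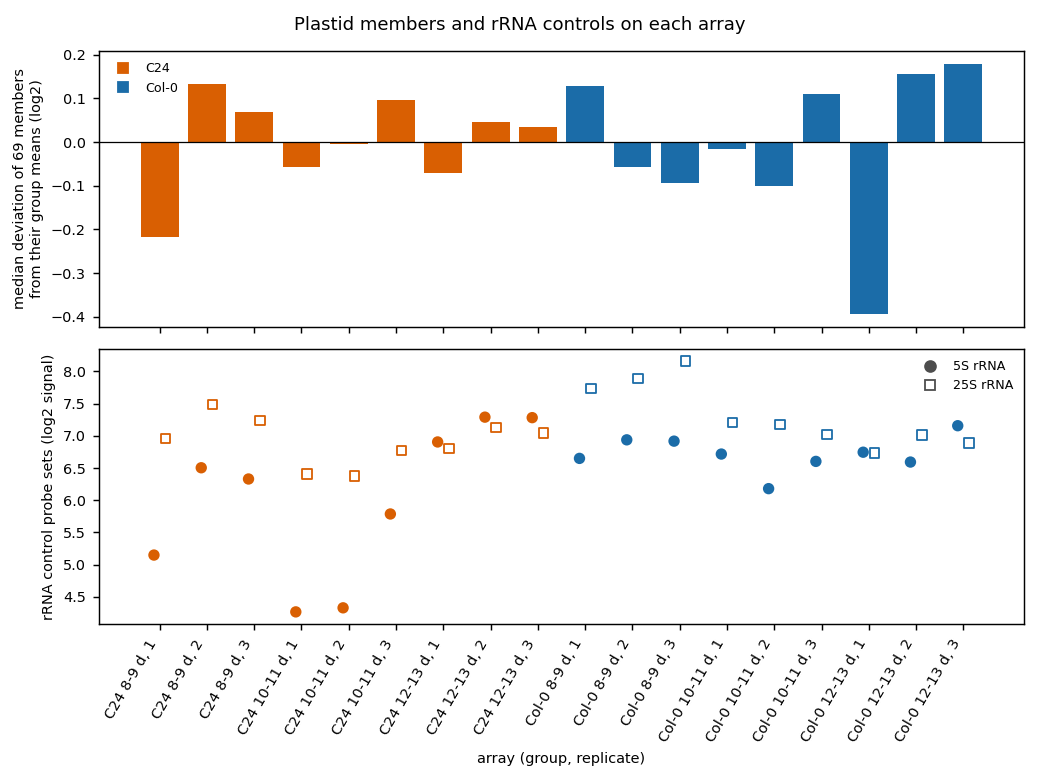
Upper panel: median deviation of the 69 members from their group means on each array, in log2 units, in C24 (orange) and Col-0 (blue). Lower panel: log2 signal of the array's control probe sets for 5S rRNA (filled circles) and 25S rRNA (open squares). Replicate 1 of Col-0 at 12-13 d (-0.39) and replicate 1 of C24 at 8-9 d (-0.22) lie lowest in the upper panel, and replicates 1 and 2 of C24 at 10-11 d lie lowest in 5S rRNA (4.26 and 4.33).

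The accessions differed in 12 members at 8-9 d, in 32 at 10-11 d and in 27 at 12-13 d. At 8-9 d, 7 members were higher and 5 lower in C24. Of all probe sets 19.4% were called there, 11.7% higher and 7.70% lower. At 10-11 d, 2 were higher and 30 lower, where 17.9% of all probe sets passed, 9.92% being higher and 7.99% lower. At 12-13 d, 5 were higher and 22 lower, where 22.0% of all probe sets were called, 12.2% higher and 9.79% lower. The median difference of the 69 members was -0.13, -0.45 and -0.40 at the 3 stages, against 0.01, 0.05 and 0.02 over all probe sets. Of these calls, 7, 10 and 11 held in all 18 fits that each left out 1 array. Without the 2 low arrays, 12, 35 and 43 members were called, of which 4, 32 and 37 were lower in C24. By construction, leaving them out raises most differences at 8-9 d and lowers most at 12-13 d. The calls lost without the 2 low arrays were rbcL and rps18 at 8-9 d, rps19 at 10-11 d, and psbA, ndhC and rpl32 at 12-13 d.

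Control probe sets for ribosomal RNA differed between the accessions too. The 5S rRNA control gave 4.26, 4.33 and 5.79 in C24 at 10-11 d, against 6.72, 6.18 and 6.60 in Col-0 at 10-11 d. At 12-13 d it gave 6.90, 7.29 and 7.28 in C24 and 6.75, 6.59 and 7.16 in Col-0. At 8-9 d it gave 5.15, 6.50 and 6.33 in C24 and 6.65, 6.94 and 6.92 in Col-0. The 25S rRNA control gave 6.96, 7.49 and 7.24 in C24 at 8-9 d, against 7.74, 7.89 and 8.16 in Col-0, where the median member difference was -0.13. It gave 6.41, 6.38 and 6.77 in C24 at 10-11 d, against 7.20, 7.18 and 7.02 in Col-0, and 6.81, 7.13 and 7.05 in C24 at 12-13 d, against 6.74, 7.01 and 6.89 in Col-0. The accessions thus did not overlap in 25S rRNA at 8-9 and 10-11 d, and in 5S rRNA they did not overlap at those stages either. At 10-11 d replicates 1 and 2 of C24 lay apart from its replicate 3 in this control, and they did so in psbT, ndhG and atpH too. The 3' minus 5' difference of the actin control lay between -0.80 and 1.06 in C24 and between 2.60 and 3.81 in Col-0. For GAPDH it lay between -0.04 and 0.48 in C24 and between -0.10 and 0.58 in Col-0, and for ubiquitin between -0.48 and 0.08 in C24 and between -0.45 and 0.09 in Col-0, so in both the accessions overlapped. The part of these controls in the members' differences was not tested.

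**Figure D2:**
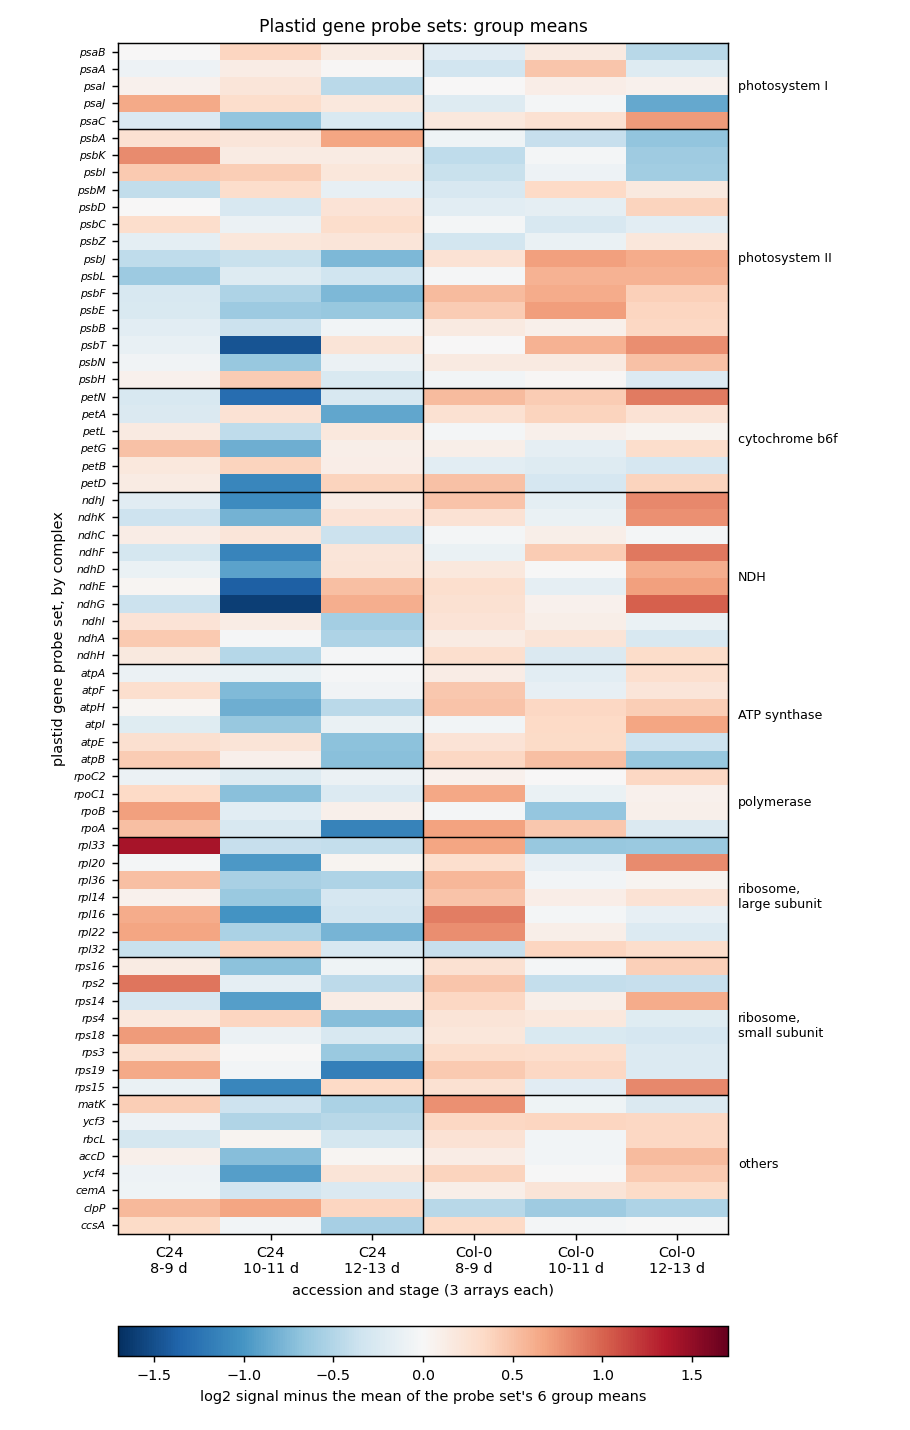
Group means of the 69 members (rows, by complex) in the 6 groups (columns), as log2 signal minus the mean of that probe set's 6 group means. Blue cells, below that mean, are most frequent in the column of C24 at 10-11 d, where 37 of 69 members had their lowest C24 mean.

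Photosystem II splits the water molecule, and its reaction centre includes cytochrome b559, whose subunits come from psbE and psbF. The small subunits psbL and psbJ are encoded beside them, in the gene order psbJ, psbL, psbF and psbE, and the cluster is transcribed as a unit. All 4 of its genes were lower in C24 at all 3 stages. In all, 6 of 69 members (8.70%) were called at all 3 stages, against 1286 of 22746 probe sets (5.65%).

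The psbF probe set (244963_at) gave 9.46, 9.54 and 9.49 in C24 at 8-9 d, against 10.48, 10.34 and 10.12 in Col-0. At 10-11 d it gave 9.56, 9.03 and 9.15 in C24, against 10.33, 10.48 and 10.41 in Col-0. At 12-13 d it gave 9.05, 8.90 and 9.09 in C24, against 10.48, 10.01 and 10.05 in Col-0. Every C24 array lay below every Col-0 array, and the C24 mean was lowest at 12-13 d. The differences were -0.81, -1.16 and -1.16 at the 3 stages (SE 0.13 each), with adjusted p of 0.000108, 1.38e-06 and 1.06e-06.

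For psbE (244964_at), the other b559 subunit, signals were 8.37, 8.80 and 8.88 in C24 at 8-9 d and 9.52, 9.31 and 9.31 in Col-0. They were 8.53, 8.11 and 8.34 in C24 at 10-11 d and 9.69, 9.64 and 9.63 in Col-0, and 8.24, 8.29 and 8.38 in C24 at 12-13 d and 9.78, 9.19 and 8.95 in Col-0. The accessions did not overlap at any stage, and the Col-0 arrays spread most at 12-13 d. Its differences were -0.70, -1.33 and -1.01 (SE 0.16), with adjusted p of 0.00347, 3.16e-06 and 8.37e-05.

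The psbJ probe set (245021_at) gave 8.92, 9.10 and 8.88 in C24 at 8-9 d and 9.74, 9.63 and 9.56 in Col-0. It gave 9.17, 9.06 and 8.83 in C24 at 10-11 d and 10.16, 10.02 and 10.11 in Col-0, and 8.79, 8.67 and 8.47 in C24 at 12-13 d and 10.43, 9.68 and 9.97 in Col-0. Here the gap was widest at the last stage, with differences of -0.67, -1.08 and -1.39 (SE 0.14; adjusted p 0.00126, 7.17e-06 and 1.85e-07). For psbL (245022_at) the accession differences were -0.59, -0.81 and -0.93 (SE 0.14; adjusted p 0.00324, 0.000168 and 2.86e-05). Its C24 arrays spanned 7.58 to 8.32 over the 3 stages, its Col-0 arrays 8.15 to 9.27, and within a stage the accessions did not overlap. All 12 of these accession differences kept their call in each of the 18 fits without 1 array.

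Of the other 11 members of photosystem II, psbK and psbI were higher in C24 at 8-9 d. These small subunits have neighbouring genes in another part of the plastid genome. The psbK probe set gave 10.30, 10.38 and 10.36 in C24 at 8-9 d, against 9.77, 9.28 and 8.26 in Col-0, and psbI gave 10.16, 10.15 and 10.27, against 9.77, 9.47 and 8.87. In both, the C24 arrays lay close together and the Col-0 arrays were spread below them. The differences at 8-9 d were 1.24 for psbK (SE 0.29, adjusted p = 0.00424) and 0.83 for psbI (SE 0.24, adjusted p = 0.0156). Of these 2 calls, 1 held in all 18 fits without 1 array. At 12-13 d psbI was again higher in C24, by 0.78, although the accessions overlapped there. Also higher in C24 at 12-13 d was psbA, which codes for the D1 reaction centre protein, by 1.34 (SE 0.40, adjusted p = 0.0192). Both calls at 12-13 d were lost in some fits without 1 array. The psbA difference lost its call without the 2 low arrays, at 1.15 with an adjusted p of 0.0805.

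The lowest difference of any member at any stage belonged to psbT (244973_at), a small subunit of the photosystem II dimer. It gave 6.77, 7.36 and 7.41 in C24 at 8-9 d, 5.05, 5.26 and 7.21 at 10-11 d, and 7.22, 7.74 and 7.62 at 12-13 d. In Col-0 it gave 7.41, 7.13 and 7.39 at 8-9 d, 8.00, 7.59 and 8.12 at 10-11 d, and 7.50, 8.32 and 8.47 at 12-13 d. Replicates 1 and 2 of C24 at 10-11 d were about 2 log2 units below replicate 3, and the accessions overlapped at 8-9 and 12-13 d but not at 10-11 d. At 10-11 d the difference was -2.06 (SE 0.37, adjusted p = 0.000335), and it lay between -2.75 and -1.67 when single arrays were left out. At 8-9 and 12-13 d it was -0.13 and -0.57, and neither was called.

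**Figure D3:**
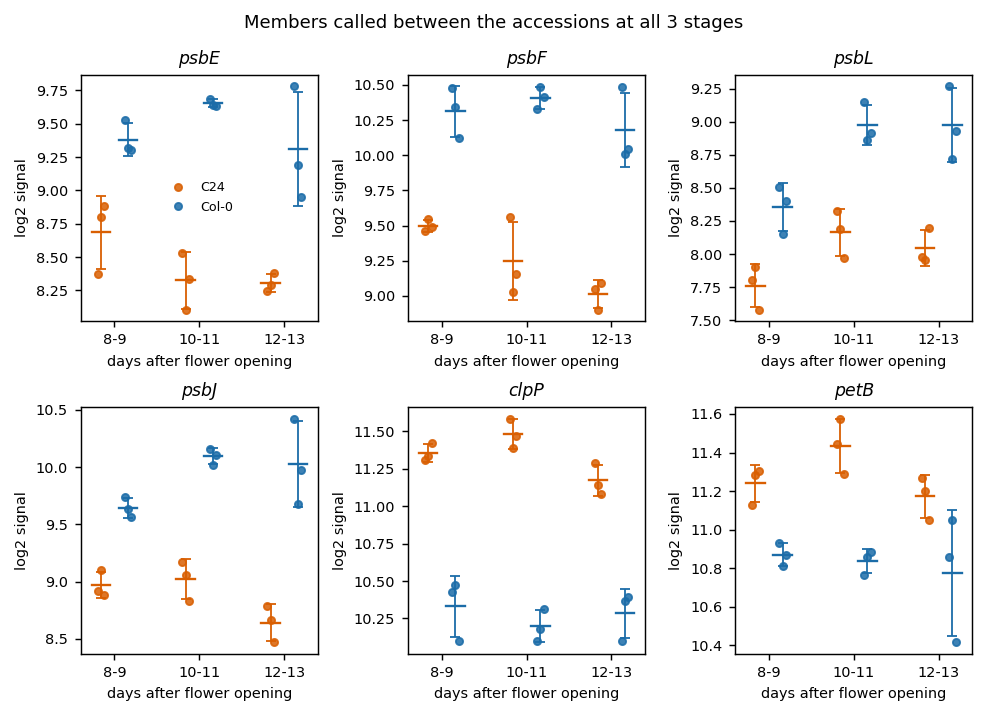
Log2 signal of the 6 members called between the accessions at all 3 stages, by days after flower opening, with C24 in orange to the left of Col-0 in blue. Points are arrays, horizontal lines means and bars the SD of 3 arrays. The 4 genes of the psbE cluster lie lower in C24, clpP and petB lie higher, and the accessions overlap in petB at 12-13 d.

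Outside photosystem II, clpP and petB were the members higher in C24 at all 3 stages. The clpP probe set (244971_at), for a proteolytic subunit of the Clp protease, gave 11.31, 11.34 and 11.42 in C24 at 8-9 d, against 10.43, 10.47 and 10.10 in Col-0. At 10-11 d it gave 11.59, 11.39 and 11.47 in C24 and 10.10, 10.18 and 10.32 in Col-0, and at 12-13 d 11.29, 11.14 and 11.08 in C24 and 10.10, 10.37 and 10.39 in Col-0. The C24 arrays lay above all Col-0 arrays throughout. The differences of 1.02, 1.28 and 0.89 (SE 0.11) had adjusted p of 3.84e-07, 1.62e-08 and 2.55e-06, and they held in every fit without 1 array.

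The cytochrome b6f complex passes electrons between the photosystems, and petB codes for its cytochrome b6. Its probe set (244976_at) was higher in C24 by 0.37, 0.60 and 0.40 at the 3 stages (SE 0.12; adjusted p 0.0358, 0.00117 and 0.0211). The C24 arrays spanned 11.05 to 11.57 and the Col-0 arrays 10.42 to 11.05, and at 12-13 d the accessions overlapped. The calls at 8-9 and 12-13 d were lost in some fits without 1 array, with adjusted p of up to 0.115 and 0.165. Its neighbour petD, for subunit IV of the complex, was lower in C24 at 10-11 d (log2 difference -0.83), and both genes belong to the psbB cluster. The petD call was lost in some fits without 1 array.

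The small b6f subunit petN (245000_at) had the largest mean accession difference of the complex. It gave 7.57, 8.19 and 8.95 in C24 at 8-9 d, 6.31, 7.13 and 8.23 at 10-11 d, and 8.03, 8.10 and 8.61 at 12-13 d. The Col-0 arrays read 9.09, 9.05 and 9.01 at 8-9 d, 8.87, 8.77 and 9.19 at 10-11 d, and 8.16, 9.62 and 10.40 at 12-13 d. The accessions did not overlap at 8-9 and 10-11 d, and at 12-13 d replicate 1 of Col-0 lay among the C24 arrays. The difference of -1.72 at 10-11 d was called (SE 0.44, adjusted p = 0.00767), and those of -0.81 at 8-9 d and -1.15 at 12-13 d were not. The call at 10-11 d held in 17 of the 18 fits without 1 array. Without the 2 low arrays the difference at 12-13 d was -1.77, with an adjusted p of 0.00137.

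Cytochrome f, from petA (245020_at), was lower in C24 at the last stage. Its probe set gave 9.04, 9.18 and 8.80 in C24 at 8-9 d, 9.20, 10.15 and 9.15 at 10-11 d, and 8.40, 8.46 and 8.26 at 12-13 d. Col-0 signals were 9.68, 9.37 and 9.46 at 8-9 d, 9.52, 9.69 and 9.68 at 10-11 d, and 9.18, 9.53 and 9.78 at 12-13 d. The C24 arrays of 12-13 d lay below every other array of the study. The accession difference there was -1.12 (SE 0.19, adjusted p = 0.000165), between -1.28 and -0.98 when single arrays were left out.

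In photosystem I, which reduces ferredoxin, psaJ was higher in C24 and psaC and psaI lower. The subunit J gene psaJ (244967_at) gave 9.81, 10.23 and 9.75 in C24 at 8-9 d, 8.96, 10.10 and 9.71 at 10-11 d, and 9.36, 9.49 and 9.55 at 12-13 d. For Col-0 the values were 9.43, 9.02 and 8.78 at 8-9 d, 9.40, 9.38 and 9.00 at 10-11 d, and 8.34, 8.70 and 8.24 at 12-13 d. The accessions overlapped at 10-11 d alone among the stages. The differences of 0.85 at 8-9 d and 1.04 at 12-13 d were called (SE 0.21; adjusted p 0.00687 and 0.00113).

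The iron-sulfur subunit gene psaC (244932_at) gave 4.95, 5.57 and 6.0 in C24 at 8-9 d, 4.53, 5.08 and 5.62 at 10-11 d, and 5.20, 5.63 and 5.63 at 12-13 d. In Col-0 it gave 5.87, 5.78 and 6.13 at 8-9 d, 5.84, 5.82 and 6.36 at 10-11 d, and 5.60, 6.60 and 7.23 at 12-13 d. The accessions overlapped at 8-9 and 12-13 d. The differences of -0.93 at 10-11 d and -0.99 at 12-13 d were called (SE 0.31; adjusted p 0.0454 and 0.0272). The first of these calls held in 6 of the 18 fits without 1 array. psaI, another small subunit, was lower in C24 at 12-13 d, by a log2 difference of -0.52.

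The NDH complex feeds electrons back into the plastoquinone pool around photosystem I. None of its 10 members were called between the accessions at 8-9 d, while 5 were lower in C24 at 10-11 d (ndhD, ndhE, ndhF, ndhG and ndhJ) and 2 at 12-13 d (ndhC and ndhI). The median NDH difference was -0.22, -0.80 and -0.40 at the 3 stages. Of the 5 calls at 10-11 d, that of ndhF (log2 difference -1.54) held in all 18 fits without 1 array. Leaving out the 2 low arrays, 0, 6 and 5 members were lower at the 3 stages.

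The ndhG probe set (244934_at), for a membrane subunit, varied most. It gave 6.88, 7.93 and 8.36 in C24 at 8-9 d, 5.61, 6.14 and 7.74 at 10-11 d, and 8.43, 8.84 and 8.87 at 12-13 d. The Col-0 arrays read 8.26, 8.44 and 8.38 at 8-9 d, 8.36, 7.49 and 8.65 at 10-11 d, and 8.24, 9.44 and 9.64 at 12-13 d. Replicates 1 and 2 of C24 at 10-11 d were the lowest arrays of the study, and the accessions overlapped at every stage. The difference of -1.67 at 10-11 d (SE 0.44, adjusted p = 0.00932) was lost in 3 of the 18 fits without 1 array, with an adjusted p of up to 0.0721.

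The ATP synthase uses the proton gradient to make ATP. Of its 6 members, atpH and atpI, for the c and a subunits of its membrane part, were lower in C24 at 10-11 d, and atpI was lower again at 12-13 d together with atpE, for the epsilon subunit. None of these calls held in all 18 fits without 1 array. The atpI signal was dim in C24 at 10-11 d (4.23, 3.51 and 4.31), where 25% of all values lay under 4.32. The atpH probe set (245026_at) gave 5.16, 5.84 and 6.27 in C24 at 8-9 d, 4.50, 4.44 and 5.77 at 10-11 d, and 5.03, 5.61 and 5.18 at 12-13 d. Col-0 signals were 6.38, 6.11 and 6.13 at 8-9 d, 6.14, 5.82 and 6.28 at 10-11 d, and 5.26, 6.53 and 6.64 at 12-13 d. The accessions did not overlap at 10-11 d, where the difference was -1.18 (SE 0.33, adjusted p = 0.0166, called in 14 of 18 fits without 1 array).

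The plastid-encoded polymerase has an alpha subunit from rpoA and beta subunits from rpoB, rpoC1 and rpoC2. The rpoA probe set (244978_at) gave 9.88, 10.06 and 9.98 in C24 at 8-9 d, 9.16, 9.20 and 9.18 at 10-11 d, and 8.26, 8.39 and 8.32 at 12-13 d. For Col-0 the values were 10.10, 10.07 and 10.24 at 8-9 d, 9.90, 9.82 and 10.04 at 10-11 d, and 9.12, 9.08 and 9.44 at 12-13 d. The arrays of each group lay close together and no 2 of the groups compared overlapped. The accession difference of -0.16 at 8-9 d was not called, and those of -0.74 at 10-11 d and -0.89 at 12-13 d were (SE 0.10; adjusted p 7.65e-06 and 5.29e-07). At 12-13 d rpoC2 was also lower in C24, by a log2 difference of -0.45.

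Plastid ribosomes make the proteins of all these genes. At 10-11 d, 5 of 7 large-subunit members (rpl14, rpl16, rpl20, rpl22 and rpl36) and 4 of 8 small-subunit members (rps14, rps15, rps16 and rps19) were lower in C24, and none were higher. Scaled to reference genes, these counts were 2 and 2. Of the unscaled calls at 10-11 d, 1 large-subunit and 0 small-subunit ones held in all 18 fits without 1 array. At 12-13 d, 3 large-subunit and 2 small-subunit members were lower, and 0 and 1 of these calls held in all such fits. At 8-9 d 1 of each was higher, namely rpl33 (log2 difference 0.73) and rps18 (0.53), and in both the accessions overlapped. The rpl33 call was lost in some fits without 1 array. The rps18 call held in 7 of 18 fits without 1 array and was lost without the 2 low arrays (adjusted p = 0.0888).

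The rps14 probe set (245005_at) gave 4.65, 5.45 and 5.92 in C24 at 8-9 d, 4.25, 4.51 and 5.30 at 10-11 d, and 5.54, 5.97 and 5.72 at 12-13 d. In Col-0 it gave 6.20, 5.85 and 5.87 at 8-9 d, 5.55, 5.47 and 6.16 at 10-11 d, and 5.54, 6.66 and 6.54 at 12-13 d. At 10-11 d every C24 array lay below every Col-0 array. The difference there was -1.04 (SE 0.30, adjusted p = 0.0191), and those of -0.63 and -0.51 at 8-9 and 12-13 d were not called.

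Among the 8 other members, rbcL, which codes for the large subunit of Rubisco, was lower in C24 at 8-9 d (log2 difference -0.55) and 12-13 d (-0.65). The call at 8-9 d held in 14 of 18 fits without 1 array and was lost without the 2 low arrays, at -0.44 with an adjusted p of 0.152. That at 12-13 d held in 17 of the 18 fits, and without the 2 low arrays it was -0.70 with an adjusted p of 0.0140. At 10-11 d accD, for a subunit of the acetyl-CoA carboxylase of fatty acid synthesis, had a log2 difference of -0.68, and ycf3 and ycf4, assembly factors of photosystem I, had -0.88 and -0.92. At 12-13 d ycf3 was lower in C24 again, with a mean of 7.24 against 8.06 in Col-0, and this call was lost in some fits without 1 array. cemA, for a protein of the plastid envelope, was lower at 10-11 d (-0.53) and 12-13 d (-0.57). ccsA, for a factor of cytochrome c assembly, was lower at 12-13 d (-0.57). Of the calls lower in C24 among these 8 members, 4 at 10-11 d and 4 at 12-13 d, none held in all 18 fits without 1 array.

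**Figure D4:**
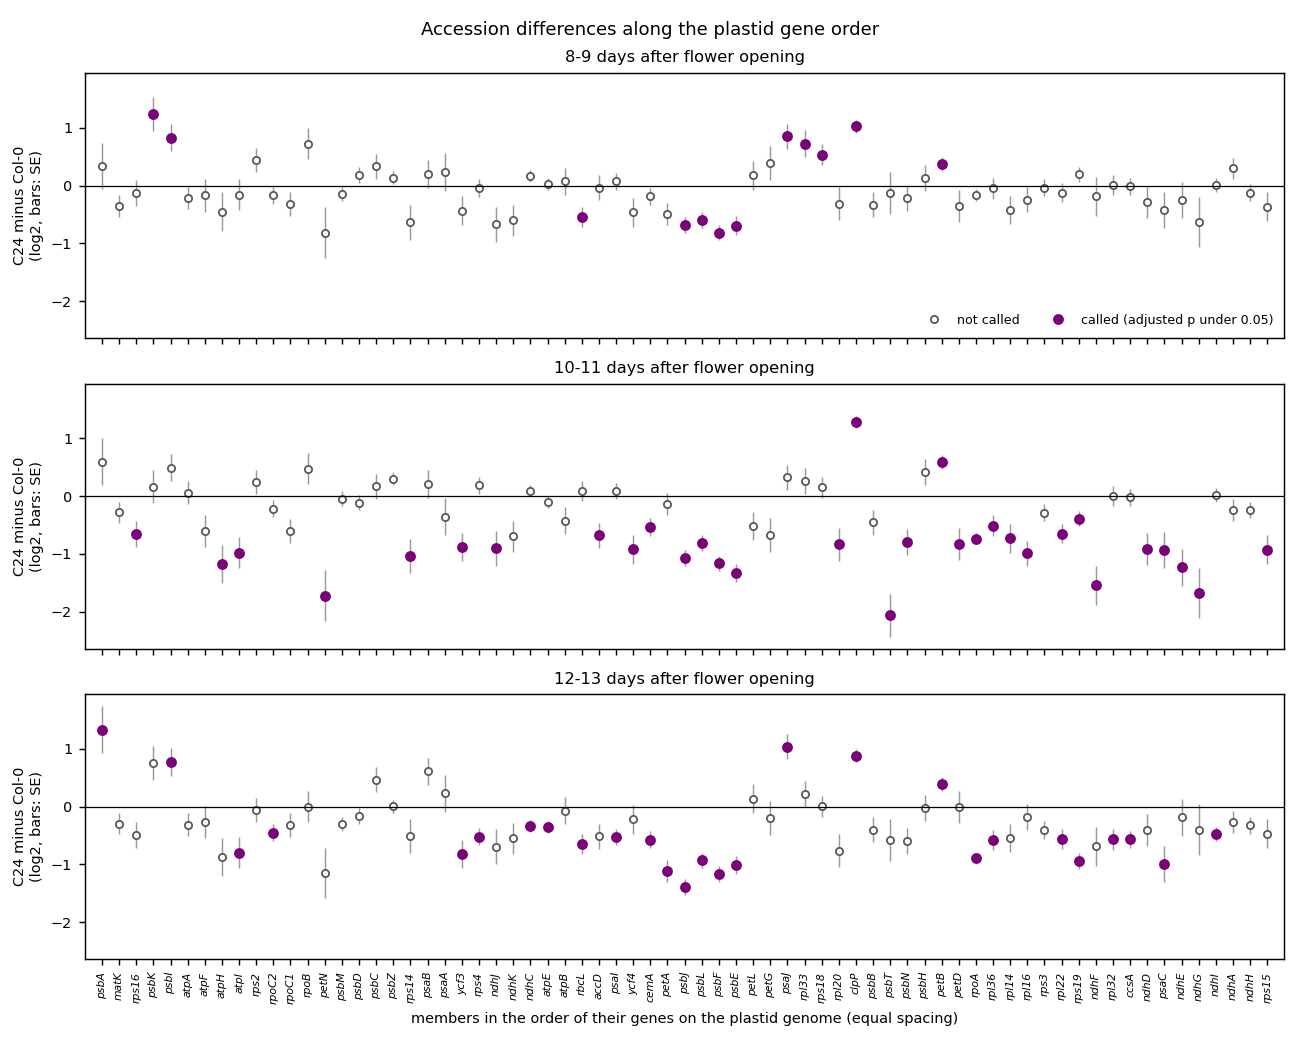
Accession difference (C24 minus Col-0, log2, bars SE) of each of the 69 members at 8-9, 10-11 and 12-13 days after flower opening, in the order of the genes on the plastid genome with equal spacing. Filled points were called. The 4 neighbours psbJ, psbL, psbF and psbE lie below 0 at each stage, and psbT is lowest at 10-11 d (-2.06).

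Between stages, 33 members changed in C24 from 8-9 to 10-11 d, 5 higher and 28 lower at 10-11 d, where 44.2% of all probe sets passed (20.7% higher and 23.5% lower). From 10-11 to 12-13 d 32 changed, 17 higher and 15 lower at 12-13 d, where 22.1% passed (9.77% higher and 12.3% lower). Between 12-13 and 8-9 d 22 differed, 1 higher and 21 lower at 12-13 d, where 53.7% passed (26.2% higher and 27.5% lower). In Col-0 13 changed in the first step, 4 higher and 9 lower, where 36.9% passed (16.8% higher and 20.1% lower). In its second step 17 changed, 10 higher and 7 lower, where 31.3% passed (14.8% higher and 16.5% lower). Over the whole interval 24 differed, 8 higher and 16 lower, where 54.2% passed (26.6% higher and 27.6% lower). The median change of the members over the whole interval was -0.18 in C24 and 0.01 in Col-0.

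The split in Col-0 depended on the 2 low arrays and on the scaling. Leaving out the 2 low arrays raises most Col-0 means at 12-13 d by construction. Without them, 24 members were higher and 13 lower at 12-13 d than at 8-9 d in Col-0, and 26 were higher and 12 lower than at 10-11 d. The calls lost over the whole interval of Col-0 were those of rpoC1, rps4, psbJ, rps18, rpl36 and ndhI, at log2 changes between -0.43 and 0.18. With arrays scaled to 12 measured reference genes, which moved the median of all probe sets in the whole interval by 0.12 in C24 and 0.22 in Col-0, 6 were higher and 20 lower in C24, and 18 were higher and 9 lower in Col-0. This scaling moved the median by 0.12 in C24 and 0.13 in Col-0 in the first step, and by less than 0.1 in the other comparisons. It gave 6 higher and 8 lower in the first step and 14 higher and 6 lower in the second step of Col-0.

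Ribosomal members made up much of what was lower at 12-13 d than at 8-9 d. In C24 4 of 7 large-subunit and 5 of 8 small-subunit members were lower and none higher, with medians of -0.95 and -0.90. In Col-0 4 and 5 were lower and 1, rpl32, was higher, with medians of -0.51 and -0.45. When the 2 low arrays were left out, 3 large-subunit members were lower and 2 higher in Col-0, and likewise 3 small-subunit members were lower and 2 higher, while 5 of each were lower in C24. Scaled to reference genes, 3 and 2 were lower and 2 and 1 higher in Col-0. The median over all probe sets was 0.04 in C24 and 0.02 in Col-0.

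The rpl33 probe set (244968_at), for a large-subunit protein, gave 9.62, 10.10 and 9.78 in C24 at 8-9 d, 8.24, 7.85 and 8.03 at 10-11 d, and 8.12, 7.84 and 8.14 at 12-13 d. The Col-0 arrays read 9.76, 9.11 and 8.45 at 8-9 d, 7.76, 7.86 and 7.73 at 10-11 d, and 7.36, 8.08 and 7.99 at 12-13 d. The arrays of 8-9 d lay above those of both later stages in each accession, and the 2 later stages overlapped. The change from 8-9 to 12-13 d was -1.80 in C24 (SE 0.23, adjusted p = 6.92e-07) and -1.30 in Col-0 (SE 0.23, adjusted p = 4.45e-05).

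The largest ribosomal cluster runs from rpl23 through rps19, rpl22, rps3, rpl16, rpl14 and rpl36 to rpoA, and 7 of its 11 genes were measured by members. In both accessions 6 of these 7 were lower at 12-13 d than at 8-9 d, with medians of -1.03 in C24 and -0.68 in Col-0, and rpl14 was not called. In Col-0 rpl36 lost its call without the 2 low arrays, at -0.22. In the first step 6 fell in C24 and 3 in Col-0. rps19 (244986_at), for a protein of the small subunit, gave 10.55, 10.64 and 10.35 in C24 at 8-9 d, 9.91, 9.85 and 9.73 at 10-11 d, and 8.46, 8.76 and 8.88 at 12-13 d. Col-0 signals were 10.60, 10.04 and 10.32 at 8-9 d, 10.03, 10.41 and 10.22 at 10-11 d, and 9.64, 9.53 and 9.75 at 12-13 d. The C24 groups were separate at each stage, and in Col-0 the arrays of 8-9 and 10-11 d overlapped. Its change over the whole interval was -1.81 in C24 (SE 0.13, adjusted p = 1.69e-10) and -0.68 in Col-0 (SE 0.13, adjusted p = 0.000165).

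At the end of this cluster, rpoA changed by -1.65 in C24 and -0.92 in Col-0 over the whole interval (SE 0.10; adjusted p 3.49e-12 and 3.37e-08). rpoC1 was lower at 12-13 d in both accessions (log2 change -0.57 in each), without the 2 low arrays -0.25 and not called in Col-0, and rpoB and rpoC2 were not called over the whole interval. Genes that are read mainly by the nuclear-encoded polymerase, of which rpoB, rpoC1, rpoC2 and accD were measured, had a median change of -0.31 in C24 and 0.20 in Col-0, with rpoC1 called.

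In C24 NDH members fell in the first step and rose in the second. There 5 of 10 fell, and then 7 rose (ndhD, ndhE, ndhF, ndhG, ndhH, ndhJ and ndhK) and 2 fell (ndhC and ndhI). In Col-0 1 fell in the first step, ndhH, and 4 rose in the second (ndhE, ndhH, ndhJ and ndhK). The ndhH signal was dim, with group means between 3.70 (C24 at 10-11 d) and 4.50 (Col-0 at 12-13 d), where 25% of all values lay under 4.32. ndhG rose by 2.22 in C24 in the second step (SE 0.44, adjusted p = 0.000653), and its difference of 0.94 in Col-0 was not called (adjusted p = 0.111). The difference between these changes was 1.28, with an adjusted p of 0.248. The median NDH change in the second step was 1.08 in C24 and 0.59 in Col-0.

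Over the whole interval 3 NDH members were lower at 12-13 d in C24 (ndhA, ndhC and ndhI), and 1 was higher (ndhF) and 1 lower (ndhI) in Col-0. The 3 of 10 in C24 lie near the 27.5% of all probe sets that were lower there. In Col-0 26.6% of all probe sets were higher and 27.6% lower. Without the 2 low arrays, 3 NDH members were lower and none higher in C24, and 6 were higher and 1 lower in Col-0. Scaled to reference genes, 2 NDH members were higher in C24 and 3 in Col-0. The lowest C24 mean lay at 10-11 d in 7 of 10 NDH members, in 37 of all 69 members (53.6%) and in 19.7% of all probe sets. In Col-0 it lay there in 6 of 10 NDH members, in 31 of 69 members (44.9%) and in 23.3% of all probe sets. The low 5S rRNA control of C24 at 10-11 d, given above, coincides with this minimum, and its part was not tested.

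**Figure D5:**
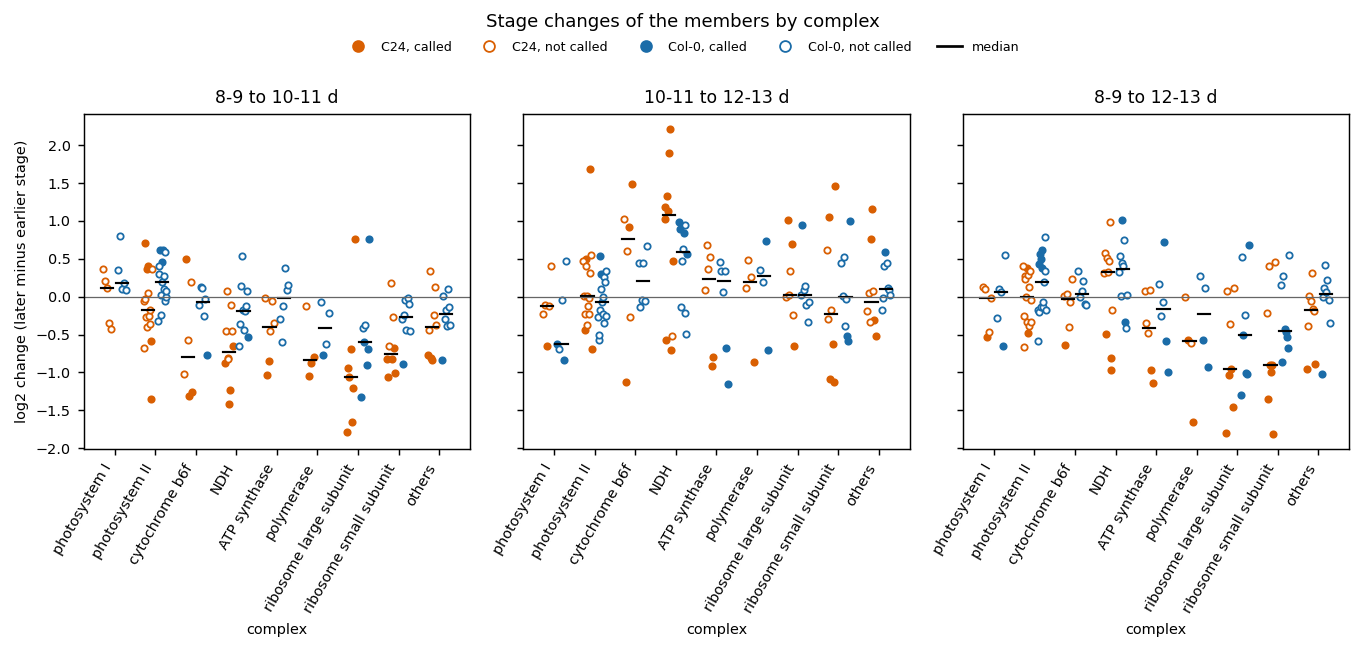
Log2 change of each member between stages (later minus earlier), by complex, for C24 (orange) and Col-0 (blue). Filled points were called and black lines are medians. NDH medians lie above 0 in the second step (1.08 in C24 and 0.59 in Col-0), and the medians of both ribosomal subunits lie below 0 over the whole interval.

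The ATP synthase genes atpB and atpE, for the beta and epsilon subunits of its catalytic part, lie side by side, and both fell in the second step in both accessions. The atpB probe set (245014_at) gave 12.24, 12.61 and 12.72 in C24 at 8-9 d, 12.50, 11.76 and 12.27 at 10-11 d, and 11.37, 11.34 and 11.43 at 12-13 d. For Col-0 the values were 12.70, 12.33 and 12.30 at 8-9 d, 12.53, 12.73 and 12.55 at 10-11 d, and 11.91, 11.80 and 10.65 at 12-13 d. The arrays of 12-13 d lay below all earlier arrays in each accession. From 8-9 to 12-13 d atpB changed by -1.14 in C24 (SE 0.23, adjusted p = 0.00028) and -0.99 in Col-0 (SE 0.23, adjusted p = 0.00103), and atpE by -0.97 and -0.59. Of the other 4 subunit genes, atpI was higher at 12-13 d in Col-0 (0.72), and atpA, atpF and atpH were not called over the whole interval.

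Of 15 members of photosystem II, 5 were higher at 12-13 d than at 8-9 d in Col-0 (psbD, psbJ, psbL, psbM and psbZ) and none lower, while in C24 1 was higher (psbZ) and 1 lower (psbF). The 5 in Col-0 are 33.3% of the 15, near the 26.6% of all probe sets that were higher there, while 27.6% were lower. In C24 26.2% of all probe sets were higher and 27.5% lower. Scaled to reference genes, 7 of the photosystem II members were higher in Col-0 and 4 in C24. psbZ was the one member higher at 12-13 d in both accessions, by 0.37 in C24 and 0.50 in Col-0. The C24 call held in 16 of 18 fits without 1 array and was lost without the 2 low arrays, at 0.25 with an adjusted p of 0.0704. psbT changed by 0.34 in C24 and 0.79 in Col-0 over the whole interval, and neither was called, although in C24 it fell by 1.35 in the first step and rose by 1.69 in the second. In photosystem I, psaI fell in C24 (-0.54) and psaJ in Col-0 (-0.65), and psaA, psaB and psaC were not called over the whole interval.

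In the cytochrome b6f complex, petA fell over the whole interval in C24 by 0.63 (SE 0.19, adjusted p = 0.00775), and its change of -0.01 in Col-0 was not called. petD fell by 1.25 in the first step and rose by 1.48 in the second in C24. In Col-0 it fell by 0.77 in the first step. petG fell by 1.32 and rose by 0.92 in these steps in C24, and it was not called in Col-0.

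Of the 8 other members, matK, which codes for the maturase of plastid introns, fell most. Its probe set (245048_at) gave 8.71, 9.44 and 9.19 in C24 at 8-9 d, 8.03, 8.84 and 8.16 at 10-11 d, and 8.04, 8.25 and 8.19 at 12-13 d. In Col-0 it gave 9.56, 9.49 and 9.36 at 8-9 d, 8.51, 8.55 and 8.82 at 10-11 d, and 8.15, 8.60 and 8.60 at 12-13 d. The arrays of 12-13 d lay below those of 8-9 d in both accessions. The change was -0.95 in C24 (SE 0.18, adjusted p = 0.000143) and -1.02 in Col-0 (SE 0.18, adjusted p = 6.32e-05). ccsA fell in C24 by 0.89, and rbcL and clpP were not called over the whole interval in either accession.

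The change from 8-9 to 12-13 d went the same way in both accessions in 16 members, 15 of them lower and 1 higher at 12-13 d. That is 21.7% and 1.45% of the members, against 22.7% and 19.3% of all probe sets, and no member was called in opposite directions. The 15 were atpB, atpE, matK, ndhI, rpoA, rpoC1 and 9 ribosomal members. The 1 higher member was psbZ. Of all 16, psbZ in C24 and ndhI, rpoC1, rps4, rps18 and rpl36 in Col-0 lost their call without the 2 low arrays.

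Tests of the difference between the accessions' changes called 2 members in the first step, 1 in the second and 4 over the whole interval, where 6.54%, 5.92% and 9.14% of all probe sets were called. In all 7 the change was more negative in C24, as it was in 3.43%, 3.32% and 5.19% of all probe sets, while it was more positive in 3.11%, 2.60% and 3.96%. rpoA and rps19 differed over the whole interval by -0.73 (SE 0.14, adjusted p = 0.00108) and -1.13 (SE 0.19, adjusted p = 0.00035), and both held in every fit without 1 array, as did rpoA in the first step, at -0.58 (SE 0.14, adjusted p = 0.011). The other 4, psbT in the first step, petA in the second, and ndhC and psbJ over the whole interval, each lost the call in 4 to 7 of the 18 fits without 1 array. With the 2 low arrays left out, 7, 5 and 10 members were called.

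Genes of 1 cluster did not all move together. In the cluster psbB, psbT, psbH, petB and petD, petB was higher in C24 at 10-11 d (0.60) while psbT (-2.06) and petD (-0.83) were lower. In the ndhC, ndhK and ndhJ cluster, ndhK and ndhJ rose and ndhC fell in the second step in C24. In the ndhH cluster, which runs through ndhA, ndhI, ndhG, ndhE and psaC to ndhD, 4 genes rose (ndhH, ndhG, ndhE and ndhD) and ndhI fell in that step. The psbE cluster had all 4 genes lower in C24 at all stages, as described above.

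Nuclear genes supply the remaining subunits of these complexes. Of 42 nuclear photosystem genes listed, 7 were measured, and all 7 were lower at 12-13 d than at 8-9 d in both accessions. LHCB4.1 and LHCB4.2, which code for antenna proteins of photosystem II, changed by -2.84 and -2.48 in C24 and by -2.78 and -2.31 in Col-0. PSBY and LHCB4.3 changed least, by -1.24 and -0.98 in C24 and by -1.29 and -1.25 in Col-0. ATPC1, for the gamma subunit of the plastid ATP synthase, changed by -2.32 in C24 and -2.24 in Col-0, and RCA, for Rubisco activase, by -2.39 and -1.59. Of 16 nuclear NDH genes, 3 were measured, and NdhL, NdhN and NdhS were lower at 12-13 d in both accessions, with changes of -1.23, -0.53 and -1.18 in C24 and of -0.32, -0.44 and -0.87 in Col-0.

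Of 34 nuclear genes for plastid ribosomal proteins 9 were measured, and all 9 fell in each step in both accessions. AT2G43030 and AT1G64510 changed by -2.90 and -2.43 in C24 over the whole interval and by -3.01 and -3.12 in Col-0, and AT5G47190 and AT3G54210 by -1.66 and -1.91 in C24 and by -2.23 and -2.41 in Col-0. AT5G15700, for a phage-type polymerase, was higher at 12-13 d in both, by 0.66 in C24 and 0.62 in Col-0. None of 6 sigma factor genes and none of 13 genes for polymerase-associated proteins were measured by a probe set with a single gene. Of 23 mitochondrial gene probe sets, 15 were higher at 12-13 d in C24 and 16 in Col-0, and none were lower.

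Some seed tissue markers differed between stages and accessions, and others were not called. All 4 embryo markers measured, of 14 listed, had medians of at least 11.39 in C24 and 9.80 in Col-0 at every stage. The largest embryo change from 8-9 to 12-13 d was that of AT1G03890, by 2.45 in C24 and 4.18 in Col-0, and 2 of 4 rose in each accession while OLEO3 was lower in Col-0 (-0.35). At 8-9 d 2 of 4 were higher in C24, by 0.39 for PAP85 and 1.83 for AT1G03890. The seed coat gene BAN had medians of 10.9, 8.62 and 8.05 in C24 at 8-9, 10-11 and 12-13 d, and of 11.7, 8.75 and 7.41 in Col-0. All 3 seed coat markers measured, of 14 listed, were lower at 12-13 d than at 8-9 d in both accessions, and all 3 were lower in C24 than in Col-0 at 8-9 d, by log2 differences between -2.14 and -0.68. Of 10 endosperm markers listed 2 were measured, AGL62 and IKU2, and they lay between 3.18 and 4.46 in C24 and between 3.19 and 4.63 in Col-0; neither was called in these comparisons. The silique wall markers ALC and ADPG1, of 8 listed, lay between 5.26 and 6.76 in C24 and between 4.64 and 7.30 in Col-0. ADPG1 rose over the whole interval in both accessions, with means of 6.60 at 12-13 d and 5.56 at 8-9 d in C24 and of 6.99 at 12-13 d and 4.69 at 8-9 d in Col-0, and at 8-9 d it was higher in C24 by 0.86. ALC fell in C24 (-0.58). The part of these markers in the members' stage changes and accession differences was not tested.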

How the data were processed

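RNA of 18 seed pools was hybridised to Affymetrix arrays. The deposited values are log2 signals that the authors made with RMA, per the submitters' processing notes; no source used here gives its version or a genome build. By its method RMA estimates each probe set from all arrays together, so an array that deviates can move the others. Titles gave the groups. The 64 control probe sets were left out, leaving 22746, of which the platform's gene table pairs 13513 probe sets of the array with 1 gene, 503 with several and does not list 8730. Plastid genes were matched to RefSeq (TAIR10.1), used for the choice of members, names and gene order.

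All 18 arrays entered 1 linear model with a mean for each of the 6 groups (limma 3.58.1, run in R 4.3.3 through lmFit, then eBayes), which left 12 degrees of freedom, to which the prior added 8.33. P-values were adjusted by Benjamini-Hochberg over all 22746 probe sets in each of 12 comparisons, and the fit was tested on simulated data. No pseudocount and no filter on dim probe sets were used. Values of every array are given for the member of each complex with the largest absolute mean stage change or mean accession difference, and after values were seen psbE, psbJ and rps19 were added on all arrays and psbK and psbI at 8-9 d. Ranges of petB and psbL were added likewise. Of nuclear lists, up to 2 called genes with the highest and 2 with the lowest mean change are named. The members and lists were chosen with earlier results of these data known. No 2 arrays held identical values, and array medians lay between 5.84 and 5.96. Same-numbered arrays did not deviate together, so the replicate number was used as a block in an alternative alone. The other alternatives were scaling to reference genes, centring on the median, a filter on dim probe sets, fits on the compared arrays alone, another variance model, array weights, probe set suffixes and leaving out arrays.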

Additional observations from a re-analysis of the deposited data

Results flagged for a closer look

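The change between stages differed between C24 and Col-0 in 7 cases by the limma test of the difference itself, given as the C24 change minus the Col-0 change. In the first step, the second step and the whole interval, 2.90%, 1.45% and 5.80% of the members were called. These shares lie below the 6.54%, 5.92% and 9.14% of all probe sets. From 8-9 to 10-11 d the difference was -1.94 for psbT (adjusted p = 0.0270) and -0.58 for rpoA (adjusted p = 0.0110). From 10-11 to 12-13 d it was -0.99 for petA (adjusted p = 0.0322). Over the whole interval it was -0.50 for ndhC (adjusted p = 0.0275), -0.71 for psbJ (adjusted p = 0.0244), -0.73 for rpoA (adjusted p = 0.00108) and -1.13 for rps19 (adjusted p = 0.00035). When single arrays were left out, the psbT difference ranged from -2.62 to -1.54 and that of rps19 from -1.27 to -0.99. Without the 2 low arrays the differences of ndhC and psbJ over the whole interval were -0.48 and -0.54, with adjusted p of 0.0837 and 0.0731.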

How the results depend on the processing

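With single arrays left out, the number of members called between the accessions ranged from 8 to 13 at 8-9 d, from 15 to 34 at 10-11 d and from 15 to 42 at 12-13 d. At 10-11 d it was 17 and 19 without replicates 1 and 2 of C24 and 20 and 15 without replicates 1 and 3 of Col-0. At 12-13 d it was 17 without replicate 1 of C24, and 42 and 15 without replicates 1 and 3 of Col-0. For the first step, the second step and the whole interval it ranged from 23 to 39, 22 to 38 and 21 to 27 in C24, and from 12 to 18, 9 to 36 and 19 to 34 in Col-0. The second step of Col-0 had 36, 9 and 10 calls without replicates 1, 2 and 3 of 12-13 d and 9 without replicate 2 of 10-11 d. For the accession differences in these changes the ranges were 1 to 4, 0 to 8 and 2 to 7, with 8 in the second step without replicate 3 of C24 at 10-11 d, and with 2 and 7 over the whole interval without replicate 3 of C24 and replicate 1 of Col-0 at 12-13 d. Without the 2 low arrays, an alternative chosen after seeing the data, 43 were called between the accessions at 12-13 d, 38 in the second step and 37 over the whole interval of Col-0, and 7, 5 and 10 for the differences in change. With trend and robust variance estimates 14 were called between the accessions at 10-11 d, 10 in the second step of Col-0 and 2 for the difference in that step. Fits on the compared arrays alone called 24 in the first step of Col-0, 34 over the whole interval of C24 and 0 for the difference in the second step. Array weights gave 20 in the first step of Col-0, and scaling to reference genes 5 for the difference in the second step. The replicate number as a block gave 3 for that difference and moved no other count by over 1.5 times; of 45 same-numbered pairs 10 correlated above 0.1 (median 0.0295), and 7 of 18 arrays correlated best with their own number. Suffix rules changed nothing, since no member has such a suffix. Of 1040 single-gene values under alternatives, 965 kept direction and call, 35 lost the call, 35 gained it and 5 changed sign. All 5 were the uncalled petA change over the whole interval of Col-0, which lay between -0.15 and 0.15 with single arrays left out and was 0.21 scaled to reference genes, 0.034 centred on medians, 0.08 without replicate 1 of 8-9 d, and 0.15 without replicate 1 of 12-13 d and without the 2 low arrays. Apart from these constructions the cause was not tested. Signal over background is not part of the values used here, so what it limits could not be measured.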
